A study of Zea mays with 48 samples.

Results

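Leaves of the maize (Zea mays) inbred line W22 were compared at 2 stages and 2 temperatures, to ask whether the transcript response to 35 °C was the same in V4 and in V5 plants. The 12 libraries used, of 48 in the series, were chosen by their labels: W22, maximum daily temperature of 31 or 35 °C, V4 or V5. They form 4 groups of 3: V4 at 31 °C, V4 at 35 °C, V5 at 31 °C and V5 at 35 °C. V4 plants were 20 days and V5 plants 27 days past germination, and the stages are named for the youngest leaf with a visible collar. The other libraries come from W22 at 33 and 37 °C and from bzip60-2, a mutant of the transcription factor bZIP60, in the same stages and temperatures. The series asks how bZIP60 ties the unfolded protein response to the heat response.

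The middle of the newest fully expanded leaf was taken in every group, at the same time of the simulated day. V4 and V5 samples are therefore different leaves as well as plants of different age, and leaf position and age cannot be told apart. A pair of growth chambers was set to each temperature, and an effect of the chambers cannot be told apart from that of temperature. The sources differ on whether a library holds 1 plant or several. The p-values below measure the spread between these libraries, which may be partly technical.

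Heat unfolds proteins in the cytosol and in the endoplasmic reticulum. In the cytosol, heat shock factors switch on genes for chaperones, which refold or clear damaged proteins. In the endoplasmic reticulum the unfolded protein response raises folding capacity, and in plants splicing of the bZIP60 message yields its active form. Leaves also change with the stage of the plant, because successive leaves differ in form and physiology, so a stage can have its own response to the same air temperature. Mitochondria and plastids carry small genomes for subunits of respiration and photosynthesis and for the ribosomes that translate them.

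Levels are in FPKM, the fragments counted on a transcript relative to its length and to the fragments mapped in the library. The sum of FPKM in a library ran from 887734 to 927602, between 24880 and 26342 of 33309 genes were above 0, and the absolute depth is unknown. Steps between the lowest values put the relative depth of the 12 libraries at 0.931 to 1.03. Replicates were alike: among genes with a mean of at least 50 FPKM, the median coefficient of variation was 2.86% to 3.15% in the 4 groups. Size factors, which scale each library to the typical gene, rose from 0.879 to 0.890 in V4 at 31 °C to 1.16 to 1.17 in V5 at 35 °C, so each count is given both as deposited and after this scaling. The transcript Zm00001d033132 split the libraries by stage, with 0 to 1.21 FPKM in the 6 V4 libraries and 97.5 to 324 FPKM in the 6 V5 libraries. The labels give no batch, and these library sets are defined here by that transcript alone. Whatever separates them was not tested and cannot be told apart from the stage. A shift on the log scale that is constant within a stage cancels in the comparison of responses. The 30432 nuclear identifiers could not be paired with gene names here, so nuclear genes are given by identifier without a role. For the same reason bZIP60, heat shock genes and leaf marker genes were not identified, and the leaf label was not checked against markers.

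The response to 35 °C differed between the stages for a large share of genes. The response is the difference of log2(FPKM + 1) between 35 and 31 °C, and the difference of responses is the V5 response minus the V4 response. It passed an adjusted p of 0.05 for 7773 of 20558 genes tested, or 37.8% (limma, Benjamini-Hochberg adjustment over all genes, two-sided). In whole leaf tissue, fewer cells of a type and less RNA per cell cannot be told apart. It was positive for 4119 genes (20.0%) and negative for 3654 (17.8%). At least 2-fold differences were called for 1062 positive genes (5.17%) and 554 negative genes (2.69%). After size-factor scaling 7737 genes were called, 3685 positive and 4052 negative, and 7315 of them were called with the same sign in both scalings. The scaled 2-fold counts were 967 positive and 579 negative, with 1507 genes shared with the deposited scale. The median over all genes was 0.03 as deposited and -0.00 after scaling, which brings it near 0 by construction.

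Within stages, V5 leaves had more called genes than V4 leaves. At V4, 6165 genes were higher at 35 °C and 3397 lower, in all 46.5% of genes. At V5, 7502 were higher and 4118 lower, in all 56.5%. The direction of these splits depends on the scaling. After size factors, 4337 were higher and 4774 lower at V4, and 5160 were higher and 5772 lower at V5. The median response of all genes moved with it, with 0.09 becoming -0.01 at V4, and 0.12 becoming -0.01 at V5. The scaling brings these medians near 0 by construction. At least 2-fold responses were called for 497 higher and 457 lower genes at V4, and for 1128 higher and 480 lower genes at V5. Scaled, these were 403 and 585 at V4, and 859 and 672 at V5.

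The responses of the stages overlapped in part. Of the genes higher at 35 °C, 3633 were called in both stages, which is 58.9% of the V4 list and 48.4% of the V5 list. Genes lower in both numbered 1720, or 50.6% of the V4 list and 41.8% of the V5 list. These counts depend on the scaling, and their order turned: after size factors 2166 genes were higher in both stages and 2719 lower in both. Opposite responses were also called: 625 genes were lower at V4 and higher at V5, and 751 were higher at V4 and lower at V5. Scaled, these opposite groups held 646 and 731 genes. Across the 20558 genes, which are not independent replicates, the responses had a Pearson r of 0.43 and a Spearman rho of 0.38.

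**Figure D1:**
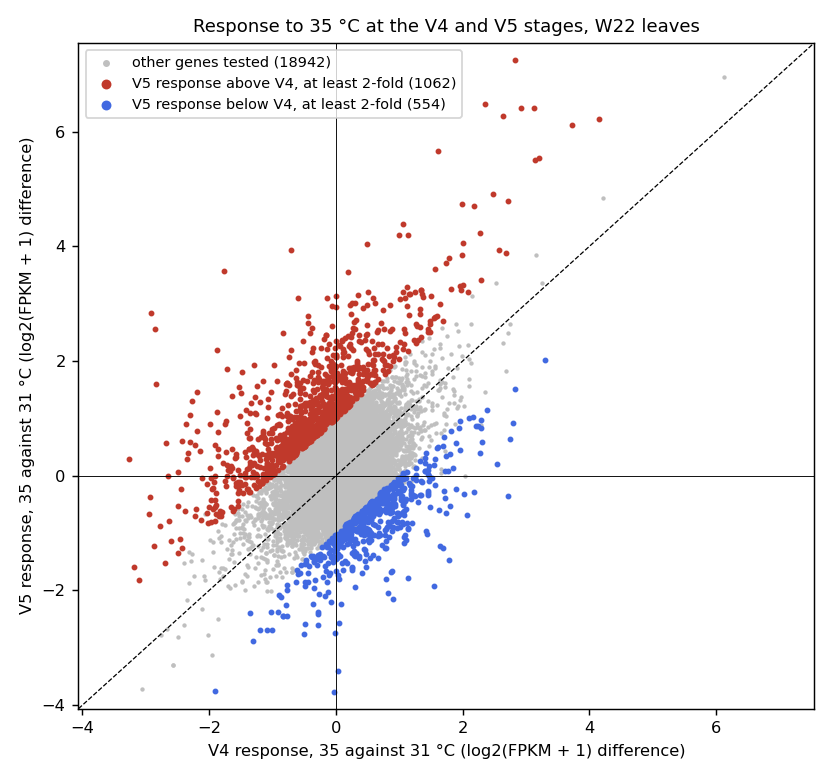
Response to 35 °C at V4 (horizontal axis) and at V5 (vertical axis), each the difference of mean log2(FPKM + 1) between 35 and 31 °C, 1 point per gene. Red points are the 1062 genes and blue points the 554 genes with a difference of responses of at least 2-fold, which lie away from the dashed line of equal responses by construction, and many lie in the quadrants of opposite sign.

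The 1062 positive genes were mostly genes with a called rise at V5 and none at V4. The difference of responses chose them, so the counts by stage that follow are a description. For 367 of them (34.6%), only the V5 rise was called, and their median level went from 1.46 FPKM to 5.76 FPKM at V5, against 1.44 and 1.22 FPKM at V4. Another 343 (32.3%) were lower at 35 °C in V4 and higher at 35 °C in V5, with median responses of -0.65 and 0.79 (log2). A rise in both stages that was larger at V5 was called for 173 genes (16.3%), with median responses of 0.76 and 2.34. A fall at V4 without a called change at V5 was seen for 134 genes (12.6%), and a fall in both that was larger at V4 for 39. Neither response was called for the other 6. After scaling these classes held, in the same order, 293, 331, 133, 153, 50 and 7 genes.

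Among the 554 negative genes the largest class was the reverse one. For 266 (48%), levels were higher at 35 °C in V4 and lower at 35 °C in V5, with median responses of 0.62 and -0.72. Their median levels were 9.14 and 17 FPKM at V4, and 13.1 and 6.56 FPKM at V5. A fall called only at V5 was seen for 121 genes (21.8%), and a rise called only at V4 for 88 (15.9%). Another 51 (9.21%) fell in both stages and more at V5, 23 rose in both and more at V4, and neither response was called for 5. After scaling these 6 classes held 258, 150, 77, 69, 20 and 5 genes.

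**Figure D2:**
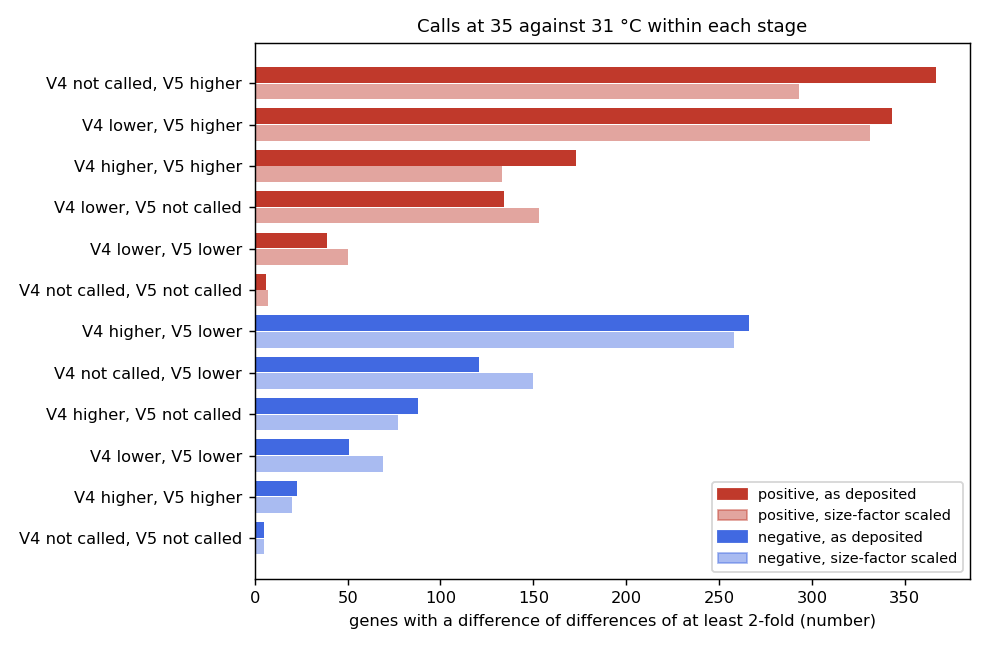
Number of genes with a difference of responses of at least 2-fold in each class of V4 and V5 calls, positive in red and negative in blue, full colour as deposited and pale after size-factor scaling. The class of V5 higher without a V4 call was the largest positive one as deposited, with 367 genes, but held 293 after scaling, when V4 lower and V5 higher was larger with 331. The largest negative class in both scalings, V4 higher and V5 lower, held 266 and 258 genes.

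The 1062 genes made up a small share of the leaf transcript pool except at V5 in the heat. They held 1.94% to 1.96% of all FPKM in the V4 libraries at 31 °C and 2.28% to 2.30% in those at 35 °C. At V5 they held 1.56% to 1.59% at 31 °C and 5.68% to 5.73% at 35 °C. The 554 negative genes held 1.77% to 1.78% and 2.34% to 2.36% at V4, and 2.11% to 2.13% and 1.05% to 1.06% at V5. The ranges of the groups did not overlap in either set, whose members were chosen on these libraries.

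Reversal at its most extreme was seen in Zm00001d038563 and Zm00001d028574. Zm00001d038563 measured 9.83, 9.09 and 8.09 FPKM in V4 at 31 °C and 0.65, 0.19 and 0.18 FPKM in V4 at 35 °C. At V5 it measured 0.09, 0.09 and 0.52 FPKM at 31 °C and 7.73, 8.35 and 7.18 FPKM at 35 °C. The cool V4 and warm V5 libraries were thus high and the other 6 low, without overlap. Its difference of responses was 5.76 (log2, SE 0.229, adjusted p = 5.73e-10), and 5.72 after scaling. Zm00001d028574 had the same form, with 17.3 ± 0.855 and 1.54 ± 0.386 FPKM at V4, and 3.43 ± 1.05 and 24.7 ± 0.879 FPKM at V5 (mean ± SD, n = 3, 31 and then 35 °C). Its difference was 5.42 (SE 0.204, adjusted p = 3.94e-10).

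Both of these genes were low in W22 at 33 °C in either stage. Zm00001d038563 had 0.0633 ± 0.0551 FPKM at V4 and 0.513 ± 0.255 FPKM at V5, and at 37 °C it had 0.583 ± 0.187 and 1.88 ± 0.573 FPKM. Zm00001d028574 had 0.823 ± 0.170 FPKM at V4 and 3.12 ± 0.985 FPKM at V5 at 33 °C, and 4.24 ± 0.665 and 2.52 ± 0.162 FPKM at 37 °C. The high V5 level at 35 °C therefore had no counterpart at the neighbouring temperatures in these libraries.

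Zm00001d047841 and Zm00001d039933 rose in both stages, and far more at V5. Zm00001d047841 measured 0.19, 0.62 and 0 FPKM in V4 at 31 °C and 8.17, 8.69 and 6.69 FPKM in V4 at 35 °C. At V5 the values were 0.36, 0.18 and 0.53 FPKM at 31 °C and 209.79, 205.4 and 198.93 FPKM at 35 °C. All 6 cool libraries lay below 1 FPKM, and the 3 warm V5 libraries stood far above the 3 warm V4 libraries. The responses were 2.82 and 7.25, a difference of 4.43 (SE 0.220, adjusted p = 4.25e-09). Zm00001d039933 had 0.983 ± 0.305 and then 9.19 ± 1.93 FPKM at V4, but 0.900 ± 0.113 and then 168 ± 3.27 FPKM at V5, a difference of 4.12 (SE 0.194). In W22 at V5 it had 3.36 ± 0.848 FPKM at 33 °C and 21.1 ± 1.38 FPKM at 37 °C, both below the level at 35 °C.

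In Zm00001d045370 and Zm00001d010652 only the V5 rise was called. Zm00001d045370 measured 2.84, 3.01 and 2.29 FPKM in V4 at 31 °C and 1.86, 3.31 and 5.18 FPKM in V4 at 35 °C, which overlap. At V5 it measured 5.48, 7.93 and 4.87 FPKM at 31 °C and 82.88, 82.82 and 77.31 FPKM at 35 °C. The difference of responses was 3.36 (SE 0.312, adjusted p = 1.87e-06), with a V4 response of 0.20 (adjusted p = 0.50). Zm00001d010652 had 0.413 ± 0.187 and 0.280 ± 0.190 FPKM at V4 and went from 0.850 ± 0.135 to 14.9 ± 0.959 FPKM at V5, a difference of 3.24 (SE 0.199).

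The positive genes Zm00001d044228, Zm00001d051468 and Zm00001d029371 fell at V4. Zm00001d044228 measured 11.43, 10.91 and 12.91 FPKM in V4 at 31 °C and 0.94, 0.99 and 1.13 FPKM in V4 at 35 °C. At V5 it had 10.4 ± 1.04 FPKM at 31 °C and 10.4 ± 1.03 FPKM at 35 °C, and the V5 response was 0.00 (adjusted p = 0.989). The V4 fall was thus large and the V5 groups overlapped, with a difference of 2.66 (SE 0.140, adjusted p = 7.55e-09). At 33 °C this gene was at 6.91 ± 0.612 FPKM at V4 and 175 ± 7.04 FPKM at V5. Zm00001d051468 went from 4.82 ± 1.22 to 0.130 ± 0.113 FPKM at V4 and had 6.53 ± 0.496 and 8.29 ± 1.29 FPKM at V5, where no change was called (response 0.30, adjusted p = 0.123). Its difference was 2.64 (SE 0.220). Zm00001d029371 fell at both stages, with responses of -2.93 at V4 and -0.37 at V5 (adjusted p = 0.0108 at V5). After scaling its difference was of the same sign, and as deposited it was 2.55 (SE 0.156).

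Of the negative genes, Zm00001d015268 had opposite responses. It measured 3.02, 3.82 and 2.9 FPKM in V4 at 31 °C and 11.22, 11.12 and 11.55 FPKM in V4 at 35 °C. At V5 it measured 4.25, 4.87 and 4.48 FPKM at 31 °C and 0.52, 0.45 and 0.4 FPKM at 35 °C. The warm V4 libraries were the highest of the 12 and the warm V5 libraries the lowest. The responses were 1.54 and -1.92, a difference of -3.46 (SE 0.144, adjusted p = 8.53e-10). In W22 at 33 and 37 °C the V4 level was also above the V5 level, with 9.61 ± 0.414 against 4.66 ± 0.346 FPKM and 16.9 ± 2.03 against 2.47 ± 0.135 FPKM. Zm00001d011461 rose from 4.97 ± 3.10 to 17.4 ± 0.720 FPKM at V4 and fell from 120 ± 12.3 to 42.4 ± 0.356 FPKM at V5, a difference of -3.25 (SE 0.401, adjusted p = 2.70e-05).

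Zm00001d044970 was the most abundant of the negative genes named here in the cool leaves. It measured 330.69, 327.99 and 334.05 FPKM in V4 at 31 °C and 239.16, 239.55 and 221.48 FPKM in V4 at 35 °C. At V5 it measured 516.7, 512.23 and 509.83 FPKM at 31 °C and 69.81, 76.33 and 77.57 FPKM at 35 °C. It fell in both stages, with responses of -0.50 at V4 and -2.77 at V5, and the stages exchanged their order between 31 and 35 °C. The difference was -2.26 (SE 0.0556, adjusted p = 1.48e-11).

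A rise called at V4 alone was shown by Zm00001d053220 and Zm00001d027353. Zm00001d053220 measured 1.68, 3.28 and 2.9 FPKM in V4 at 31 °C and 14.53, 16.44 and 14.38 FPKM in V4 at 35 °C. At V5 it had 1.74 ± 0.402 and 1.25 ± 0.387 FPKM, with no called response (-0.29, adjusted p = 0.188). The difference was -2.47 (SE 0.255, adjusted p = 5.09e-06). Zm00001d027353 went from 0.353 ± 0.178 to 6.83 ± 0.760 FPKM at V4 and had 1.35 ± 0.161 and 1.76 ± 0.708 FPKM at V5, a difference of -2.33 (SE 0.245).

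A fall called at V5 alone led in Zm00001d043968 and Zm00001d033133. Zm00001d043968 had 7.99 ± 3.24 and 7.89 ± 1.63 FPKM at V4 and fell from 26.5 ± 0.996 to 1.69 ± 0.978 FPKM at V5, a difference of -3.44 (SE 0.360). Zm00001d033133 measured 0 to 0.58 FPKM in the 6 V4 libraries, 191.8, 211.59 and 531.86 FPKM in V5 at 31 °C and 27.66, 58.82 and 4.07 FPKM in V5 at 35 °C. Its difference was -3.73 (SE 0.939, adjusted p = 0.00686), and with a fit to all 48 libraries it was not called (adjusted p = 0.109). In W22 V4 at 37 °C the replicate that carries the set transcript had 785 FPKM and the others 3.4 and 0.47 FPKM. In other libraries with that transcript the gene was high in some groups and low in others. It had 613 ± 330 and 561 ± 124 FPKM in bzip60-2 V4 at 33 and 35 °C. It had 7.51 ± 8.96 FPKM in W22 V5 at 33 °C and 2.83 ± 4.91 FPKM in bzip60-2 V5 at 35 °C. In bzip60-2 V4 at 31 °C, without that transcript, it had 0.360 ± 0.624 FPKM. Its replicates spread most of the genes named here.

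No response was called in either stage for Zm00001d032481 and BGI_novel_G002332, the second being an unannotated transcript by its name. Zm00001d032481 had 11.1 ± 1.45 and 16.4 ± 1.93 FPKM at V4 and 7.64 ± 1.37 and 5.05 ± 2.70 FPKM at V5, a difference of -1.15 (SE 0.377, adjusted p = 0.0290). That call was lost without V4 31 °C replicate 3, V4 35 °C replicate 2 or V5 31 °C replicate 1 or 3, with an adjusted p of up to 0.0645, and without V5 35 °C replicate 3 the value was -0.74 (adjusted p = 0.0184). BGI_novel_G002332 had 3.22 ± 2.41 and 6.54 ± 1.22 FPKM at V4 and 14.1 ± 3.60 and 8.90 ± 3.08 FPKM at V5, a difference of -1.70 (adjusted p = 0.0409). Its call was lost without V4 35 °C replicate 1 or 3, V5 31 °C replicate 1 or 2 or V5 35 °C replicate 3, with an adjusted p of up to 0.0983. Without V4 31 °C replicate 1 its value was -1.05 (adjusted p = 0.0342).

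**Figure D3:**
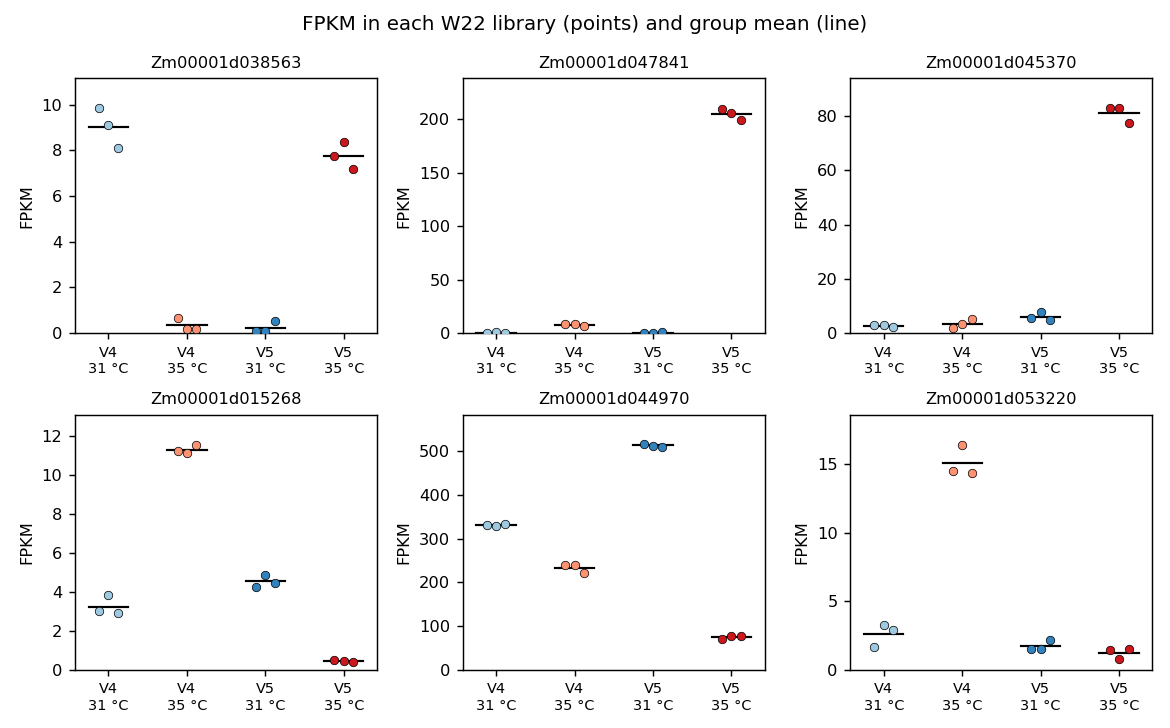
FPKM of 6 genes (vertical axes, each from 0) in the 12 W22 libraries, by stage and temperature, with 1 point per library and a line at the mean of each group. Zm00001d038563 is high in cool V4 and warm V5 leaves, Zm00001d047841 and Zm00001d045370 are high in warm V5 leaves, Zm00001d015268 and Zm00001d053220 are high in warm V4 leaves, and Zm00001d044970 falls most at V5.

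Seen as a difference between the stages, the leaves stood farther apart at 35 °C than at 31 °C. At 31 °C 8983 genes were higher at V5 (43.7%) and 2752 lower (13.4%), and at 35 °C 10293 were higher (50.1%) and 3754 lower (18.3%). Size factors set the typical gene equal between libraries, so a median near 0 and a near-even split come by construction. After this scaling 4570 were higher and 5129 lower at 31 °C, and 6191 were higher and 6151 lower at 35 °C. The median stage difference of all genes, 0.20 at 31 °C and 0.25 at 35 °C as deposited, was 0.00 and 0.02 after scaling. At least 2-fold stage differences were called for 1084 genes at 31 °C and 2538 at 35 °C, and for 1035 and 2225 after scaling. In a fit of all W22 libraries, 5272 genes reached that size at 33 °C and 1129 at 37 °C. After scaling these were 3082 and 1113. The count at 33 °C was thus above that at 35 °C, and the wider gap was not particular to 35 °C. The stages were farther apart at 35 °C than at 31 °C for 12553 of the 20558 genes (61.1%). This held for 866 of the 1062 positive genes and for 387 of the 554 negative genes. After scaling these counts were 12563, 783 and 434. The counts of the chosen genes are a description, since the same values chose them.

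The stage calls of the chosen genes are a description, since the difference of responses chose them. Of all 20558 genes tested, 11735 were called different between the stages at 31 °C and 14047 at 35 °C. For 435 of the 1062 positive genes the stages were not called different at 31 °C and V5 was higher at 35 °C. For 291 V5 was lower at 31 °C and higher at 35 °C, and for 240 it was higher at both. Of the negative genes, 191 were higher at V5 at 31 °C and lower at 35 °C, 167 were lower at 35 °C only, and 104 were lower at both. After scaling these 6 counts were 317 for the positive reversal, 369 for the positive genes different at 35 °C only, 140 for those higher at both, 152 for the negative reversal, 194 and 159.

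W22 libraries at 33 and 37 °C, which did not enter the choice of genes, gave a stage difference of their own. After size factors, the median of the 1062 positive genes was 0.50 at 33 °C and 0.25 at 37 °C, between -0.26 at 31 °C and 1.14 at 35 °C. The median of the 554 negative genes was -0.81 at 33 °C and -0.52 at 37 °C, against 0.11 at 31 °C and -1.22 at 35 °C. The median of all genes stayed between 0.00 and 0.04, near 0 by construction of the scaling. At 33 °C, 622 positive genes were called higher at V5 (58.6%, against 33.1% of all genes) and 368 negative genes lower (66.4%, against 31.5%). At 37 °C, 476 positive genes were higher (44.8%, against 22.8%) and 323 negative genes lower (58.3%, against 24.3%). As deposited, the medians of the positive genes were 0.95 and 0.38 and those of the negative genes -0.26 and -0.36. These stand against 0.58 at 33 °C and 0.17 at 37 °C for all genes. At 33 °C, 822 positive genes were then called higher at V5 (77.4%, against 69.9% of all genes). The excess of positive genes there was thus smaller than after scaling. Of the negative genes 277 were lower (50%, against 11.8%). At 37 °C these counts were 558 (52.5%, against 39.3%) and 296 (53.4%, against 15%). V4 replicate 3 at 37 °C carried the transcript of the V5 library set. Without it the scaled medians at 37 °C were 0.25 and -0.53, with 448 positive genes higher and 322 negative genes lower.

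**Figure D4:**
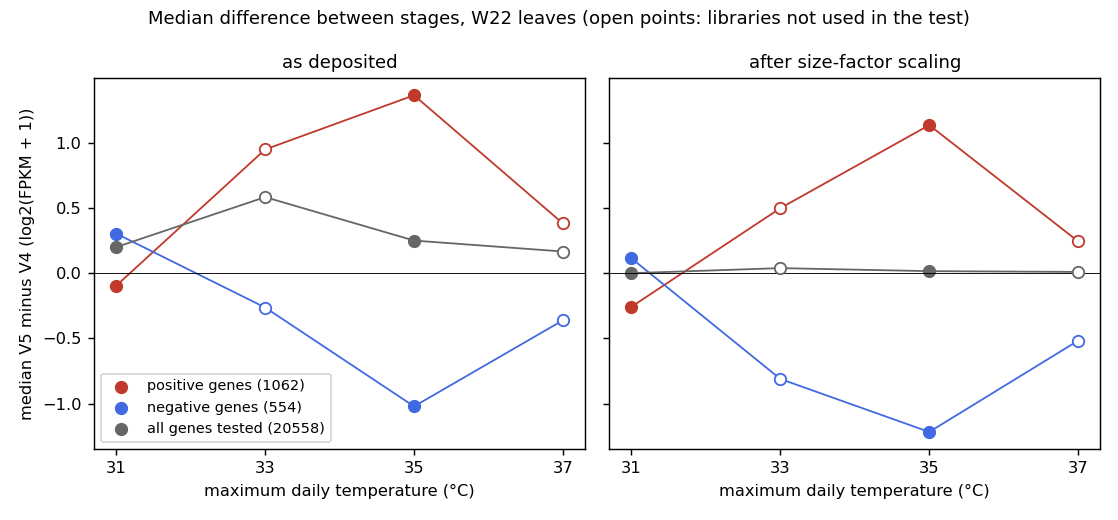
Median difference between V5 and V4 (log2(FPKM + 1), vertical axis) at each maximum daily temperature (horizontal axis) for the 1062 positive genes (red), the 554 negative genes (blue) and all 20558 genes (grey), as deposited on the left and after size-factor scaling on the right. Filled points are the temperatures used to choose the genes and open points, at 33 and 37 °C, are libraries not used, where the scaled medians were 0.50 and 0.25 for positive and -0.81 and -0.52 for negative genes.

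In bzip60-2 leaves, measured in separate libraries, the same difference of responses was positive for 3383 of 21927 genes (15.4%) and negative for 4102 (18.7%). Of the 1062 genes positive in W22, 477 were positive in bzip60-2 (44.9%), 95 were negative and 490 were not called. These 477 are 14.1% of all positive bzip60-2 calls. Of the 554 genes negative in W22, 361 were negative in bzip60-2 (65.2%), which is 8.80% of the negative bzip60-2 calls, and 20 were positive. The median difference in bzip60-2 was 0.39 for the positive genes and -0.69 for the negative genes, against 1.36 and -1.26 in W22, where the genes were chosen. After scaling, 490 and 349 genes had the W22 sign. The bzip60-2 libraries do not follow the library sets by stage. The set transcript measured 0 to 1.04 FPKM in bzip60-2 V4 at 31 °C but 92.4 to 169 FPKM in V4 at 35 °C. In the mutant the V4 response crosses the sets, and response and set cannot be told apart.

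The difference between the genotypes in the difference of responses was called for 5506 of 21927 genes (25.1%), with 3132 above and 2374 below 0. Scaled, 5623 were called. Among the named genes, Zm00001d028574 had 5.42 in W22 and 1.16 in bzip60-2, and the genotypes differed by 4.26 (adjusted p = 8.63e-11). Its bzip60-2 levels were 24.2 ± 2.98 and 10.6 ± 1.56 FPKM at V4 and 7.24 ± 0.264 and 7.51 ± 0.607 FPKM at V5. Zm00001d045370, which reached 81.0 ± 3.2 FPKM in warm V5 leaves of W22, reached 9.63 ± 2.27 FPKM in those of bzip60-2, and its difference there was 0.30. The V5 rise of Zm00001d047841 ended at 78.2 ± 6.27 FPKM in bzip60-2 against 205 ± 5.46 FPKM in W22, but its difference of responses, 4.77, did not pass the test against W22 (adjusted p = 0.572). Zm00001d015268 had -2.95 in bzip60-2 and -3.46 in W22 (adjusted p = 0.0582 for the genotypes).

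Organelle genes are the named part of the table, with every one of 211 locus tags matched to RefSeq symbols. Poly(A) selection removes most organelle RNA, so their levels are low estimates and carry more doubt. Of 43 plastid genes with a gene name, 26 passed the filter of 1 FPKM in 3 libraries, and of 27 mitochondrial genes 15 did. Without the filter 35 plastid and 26 mitochondrial genes had a value above 0 and were fitted. Mitochondrial genes rose with temperature in both stages in that fit, 14 of 26 at V4 and 22 of 26 at V5, and 0 fell. The background was 19.7% of genes higher at V4 and 26.1% at V5. The difference of responses was called for 0 positive and 1 negative mitochondrial gene, against 13.9% and 11.6% of all genes. With the filter it was positive for 0 of 15 and negative for 2, atp6 and rps13, against 20.0% and 17.8% of all genes. After scaling it was negative for 3, with rps12 added at -0.60 (adjusted p = 0.0492, limma).

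Among the subunits of cytochrome c oxidase, the last enzyme of the respiratory chain, cox3 had group means of 0.353 and 3.48 FPKM at V4, and of 1.37 and 6.18 FPKM at V5. Its difference of responses was -0.10, with a 95% interval from -0.72 to 0.52. cox2 had -0.14, with an interval from -0.56 to 0.28. These intervals hold 0 but are wide, so differences within them, in either direction, remain possible. nad3, a subunit of complex I of the chain, had -0.42 (adjusted p = 0.155). The gene atp6, a subunit of the mitochondrial ATP synthase, measured 0.82, 0.83 and 1.07 FPKM in V4 at 31 °C and 2.87, 3.35 and 3.51 FPKM in V4 at 35 °C. At V5 it measured 3.02, 3.26 and 3.21 FPKM at 31 °C and 5.33, 4.69 and 4.4 FPKM at 35 °C. It rose in both stages and less at V5, with a difference of -0.68 (SE 0.151, adjusted p = 0.00317). The gene rps13, for a mitochondrial ribosomal protein, was listed at 0 in V4 at 31 °C and had 2.93 ± 0.437 FPKM at 35 °C, against 0.857 ± 0.280 and 3.81 ± 0.650 FPKM at V5. Its difference of -0.59 (adjusted p = 0.0376) was lost in 9 of 12 fits without 1 library, in which the adjusted p reached 0.100, and also without the filter (0.0524) and with all 48 libraries (0.265). The losses came without any of the V4 31 °C libraries, V4 35 °C replicate 2 or 3, V5 31 °C replicate 1 or 3, or V5 35 °C replicate 2 or 3.

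Plastid genes moved in both directions. In the fit without the filter 11 of 35 were higher and 5 lower at 35 °C in V4 leaves, and 10 were higher and 4 lower in V5 leaves, against 19.7% of all genes higher and 11.3% lower at V4, and 26.1% higher and 13.8% lower at V5. The difference of responses was called for 1 of 35 and was positive there, against 13.9% of all genes positive and 11.6% negative. With the filter it was positive for 2 of 26 and negative for 0, against 20.0% and 17.8% of all genes. After scaling it was positive for 1 and negative for 3, namely psaA of photosystem I and the NADH dehydrogenase-like subunits ndhK and ndhC. Their scaled values were small, at -0.31, -0.15 and -0.16, with adjusted p of 0.0448, 0.0493 and 0.0427 (limma). Scaled, 3685 of all 20558 genes were positive and 4052 negative. As deposited, the median over the 26 genes was -0.12, against 0.03 over all genes. The gene rpl16, for a protein of the large plastid ribosome subunit, measured 30.37, 31.46 and 22.91 FPKM in V4 at 31 °C and 3.06, 14.45 and 11.23 FPKM in V4 at 35 °C. At V5 it had 15.7 ± 4.81 and 17.1 ± 0.906 FPKM. It fell at V4 without overlap and had no called response at V5 (0.17, adjusted p = 0.726). The difference was 1.83 (SE 0.532, adjusted p = 0.0154), and it was not called with all 48 libraries (adjusted p = 0.0664). The genes atp6 and rps13 were chosen after their values were seen.

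**Figure D5:**
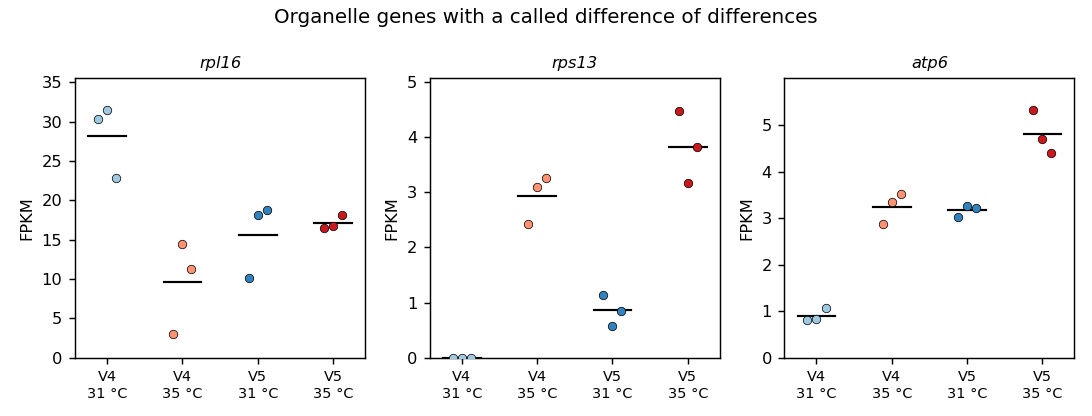
FPKM (vertical axes, each from 0) of the plastid gene rpl16 and the mitochondrial genes rps13 and atp6 in the 12 W22 libraries, with 1 point per library and a line at each group mean. rpl16 is highest in V4 at 31 °C, and rps13 and atp6 are lowest in V4 at 31 °C.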

How the data were processed

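Poly(A) RNA of maize leaves was selected with oligo(dT) and sequenced by BGI as single-end 50-base reads, per the labels' protocols. FPKM had been computed by the authors and deposited as a table with 1 column per library. The submitters' processing notes name RSEM 1.2.12, Bowtie2 2.2.5, DESeq2 1.4.5, HISAT and HISAT2 2.0.4 without their steps, and the genome build is not given in the sources used here. No count model was fitted to these values. The treatment of reads shared by similar genes is not stated, and 53 genes tested share all their values with another gene.

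Computed here were log2(FPKM + 1) values for genes that reached 1 FPKM in 3 or more of the 12 libraries. Fold changes on this scale understate the change of low genes. Group means were fitted in R 4.3.3 by limma 3.58.1, moderated with a trend of variance on level, with two-sided p values adjusted by Benjamini-Hochberg over all 20558 genes and a threshold of 0.05. The test was the difference of differences; at least 2-fold means a log2 size of 1 or more. Size factors were, for each library, the median over 19607 genes of the ratio to the gene's geometric mean. The genotype test used 24 libraries and 21927 genes, and the other temperatures all W22 libraries. Scripts were tested on simulated data. Plots were made in matplotlib 3.10.9 under Python 3.11.15.

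Named genes had to pass in both scalings, reach a group mean of 5 FPKM and have replicates that separate. The rule then took the largest values, at most 2 unnamed identifiers per direction and class. Organelle genes with a name were taken by rank, and 1 gene is not reported here. The classes, gene lists and genes were chosen with earlier results of these data known. Lists of nuclear genes (heat shock, endoplasmic reticulum, clock and photosynthesis genes among them) and promoter motifs could not be applied, because 0 of 30432 nuclear identifiers matched the reference table. Alternatives covered scaling, pseudocount, filter, libraries in the fit, array weights, replicate block and left-out libraries. The organelle counts without a filter and the 37 °C values without 1 library were added after seeing the data.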

Additional observations from a re-analysis of the deposited data

Results flagged for a closer look

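The responses of the stages differed by a test of the difference itself for 7773 genes, and the genotypes differed in that difference for 5506 genes. Values (log2, limma) of the genes that passed each test and were chosen for naming are collected here. The response at V5 was above that at V4 by 5.76 in Zm00001d038563, 5.42 in Zm00001d028574, 4.43 in Zm00001d047841 and 4.12 in Zm00001d039933. It was above by 3.36 in Zm00001d045370, 3.24 in Zm00001d010652, 2.66 in Zm00001d044228, 2.64 in Zm00001d051468 and 2.55 in Zm00001d029371. Of the organelle genes, rpl16 had 1.83, rps13 -0.59 and atp6 -0.68. Differences below 0 were -1.15 in Zm00001d032481, -1.70 in BGI_novel_G002332, -2.26 in Zm00001d044970, -2.33 in Zm00001d027353 and -2.47 in Zm00001d053220. They were -3.25 in Zm00001d011461, -3.44 in Zm00001d043968, -3.46 in Zm00001d015268 and -3.73 in Zm00001d033133.

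W22 and bzip60-2 differed in this quantity (W22 minus bzip60-2) by 3.69 in Zm00001d038563, 4.26 in Zm00001d028574, 1.62 in Zm00001d039933, 3.06 in Zm00001d045370 and 1.54 in Zm00001d010652. They differed by 2.75 in Zm00001d051468, 0.54 in Zm00001d029371, 0.35 in Zm00001d044970, -1.33 in Zm00001d011461 and -2.07 in Zm00001d043968. Zm00001d033133 had the value farthest from 0 among these genes, 9.37. In rpl16 the value was 2.86 and in rps13 -1.49. In bzip60-2 the V4 response crosses the library sets, so genotype and set cannot be told apart here.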

How the results depend on the processing

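Counts of genes called for the difference of responses, in total, by direction and at 2-fold, and for the response of each stage stayed within 1.5 times of the values reported under each alternative run. After size factors 4570 genes were higher and 5129 lower at V5 at 31 °C, 6191 were higher and 6151 lower at 35 °C, and the plastid list held 1 positive and 3 negative genes. The scaled counts of genes higher in both stages (2166, against 3633) and lower in both (2719, against 1720) also moved by more, as did those of positive genes higher at V5 at both temperatures (140, against 240) and negative genes lower at both (159, against 104). Without 1 library, 6912 to 7356 genes were called and 1516 to 1628 at 2-fold. Replicate numbers did not pair the libraries (correlations of same-numbered deviations from -0.0339 to 0.0333 over 18 pairs, and 3 of 12 libraries correlated best with their own number). With the replicate number as a block 7613 genes were called. No named gene changed sign. The calls lost were those of rpl16 and Zm00001d033133 with all 48 libraries, and of rps13, Zm00001d032481 and BGI_novel_G002332 under several alternatives; the cause was not tested. Under the block BGI_novel_G002332 had an adjusted p of 0.0507, and no other named call was lost. Depth is unknown, so low FPKM values have no counting interval.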

Other observations

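Transcripts named as unannotated (those with a BGI prefix) responded differently between the stages less often than the table as a whole, as a count with no test of the difference. Of 1603 tested, 183 were positive and 175 negative, or 22.3%, against 37.8% of all genes, and their median level over the 12 libraries was 2.01 FPKM against 8.33 FPKM for all genes tested. After scaling 163 were positive and 182 negative, against 3685 and 4052 of all 20558 genes. At least 2-fold differences were called for 71 positive and 52 negative ones of the 1603, against 5.17% and 2.69% of all genes. At that size they were thus near the share over all genes.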
